A study of Mus musculus with 46 samples.

Results

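The enzymes that break down tyrosine and tryptophan in the liver were followed in mice fed ad libitum (AL), under dietary restriction (DR), on rapamycin (Rapa) or on both (Rapa + DR). The set was chosen by gene name, with earlier results of these data known. It holds 9 genes: Tat, Hpd, Hgd and Fah of the tyrosine branch, and Tdo2, Afmid, Kmo, Kynu and Haao of the tryptophan branch. The array carried 14 probes for 8 of these genes, out of 25697 probes in all, which named 16593 genes. Afmid had 7 probes, the other 7 genes had 1 each, and Hgd was not analysed here because no probe was named for it. All 46 mice were male C57BL6/J mice sampled at 8 months of age after 6 months of feeding, with 1 liver array per mouse. AL mice (n = 11) ate freely, DR mice (n = 11) had 40% restriction, Rapa mice (n = 12) ate freely a chow with 14 ppm rapamycin, an inhibitor of the mTOR kinase, and Rapa + DR mice (n = 12) had both. Whole liver was used, so fewer cells of a type and less RNA per cell cannot be told apart.

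Both pathways run mainly in hepatocytes. In the tyrosine branch, Tat removes the amino group, Hpd turns the resulting keto acid into homogentisate, and Hgd and Fah open and split the ring products into fumarate and acetoacetate. In the tryptophan branch, Tdo2 opens the indole ring to formylkynurenine, Afmid releases kynurenine, Kmo hydroxylates it, Kynu cleaves it to hydroxyanthranilate, and Haao oxidises that to the precursor of quinolinate, from which NAD can be made. Tat and Tdo2 are textbook examples of liver enzymes induced by glucocorticoids.

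Levels are given as the normalised log2 signal. The deposited values are z scores, that is, log2 signals centred on each array's mean and divided by that array's standard deviation (the array SD), and they were put back on a log2 scale with the mean array SD of 1.34 and the mean level of 7.05. Between 29.8% and 45.5% of the probes of an array were above its background, and 14647 probes were above background on at least 1 array and were tested. A probe was called when the adjusted p (limma, Benjamini-Hochberg over all tested probes) was under 0.05 and the group medians differed by over 15%. The array SD had a mean of 1.28 ± 0.12 in AL (SD, n = 11), 1.38 ± 0.09 in DR (n = 11), 1.28 ± 0.13 in Rapa (n = 12) and 1.41 ± 0.12 in Rapa + DR (n = 12), and a larger array SD gives a bright probe a lower z score for the same distance from the array mean. Results for bright probes are therefore also given for centred arrays, from which only the array mean was subtracted.

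Of the 13 member probes tested, 3 were lower in DR than in AL (Haao, Fah and Kynu) and none was higher, where 6.45% of all tested probes were called lower and 10.9% higher, 17.3% together. In Rapa, 3 were lower than in AL (Hpd, Haao and 1 probe of Afmid) and none was higher, against 5.83% lower and 8.64% higher among all probes, 14.5% together. In Rapa + DR, 3 were lower (Haao, Fah and Kynu) and 3 higher (Tdo2 and 2 probes of Afmid), against 9.87% and 17.6% among all probes, 27.5% together. Over the brightest probe of each of the 7 genes, a median log2 change from AL was taken on the deposited scaling. It was −0.36 under DR, −0.25 under Rapa and −0.26 under Rapa + DR. The median over all tested probes, bright and dim, lay between −0.0036 and 0.0060. These comparisons share the 11 AL mice. With centred arrays none of the 13 probes was called in DR, and in Rapa + DR 4 were higher and 0 lower. The centred changes of the brightest probes in DR were Hpd −0.0066, Fah −0.0059, Tdo2 0.27, Afmid 0.11, Kmo −0.14, Kynu −0.13 and Haao −0.31. In the same order they were −0.74, −0.28, 0.072, −0.37, −0.051, 0.13 and −0.37 in Rapa. In Rapa + DR they were 0.10, 0.18, 0.64, 0.27, 0.31, 0.058 and −0.19.

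Between the treated groups, Rapa + DR and DR differed in 1 of the 13 probes (Kmo, higher), where 2.21% of all probes were called. Against Rapa, the Rapa + DR mice were higher in 4 probes (Tdo2 and 3 of Afmid) and lower in 2 (Kynu and Haao), where 11.5% of all probes were called higher and 5.93% lower, 17.5% together. DR mice were lower than Rapa mice in 2 (Kynu and Haao) and higher in none, where 4.38% were called lower and 6.77% higher, 11.1% together. The interaction, a test of whether rapamycin changed a probe differently in restricted and in freely fed mice, was called for none of the 13 (limma; 5 at an unadjusted p under 0.05), where 1.31% of all probes were called higher and 1.20% lower.

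**Figure D1:**
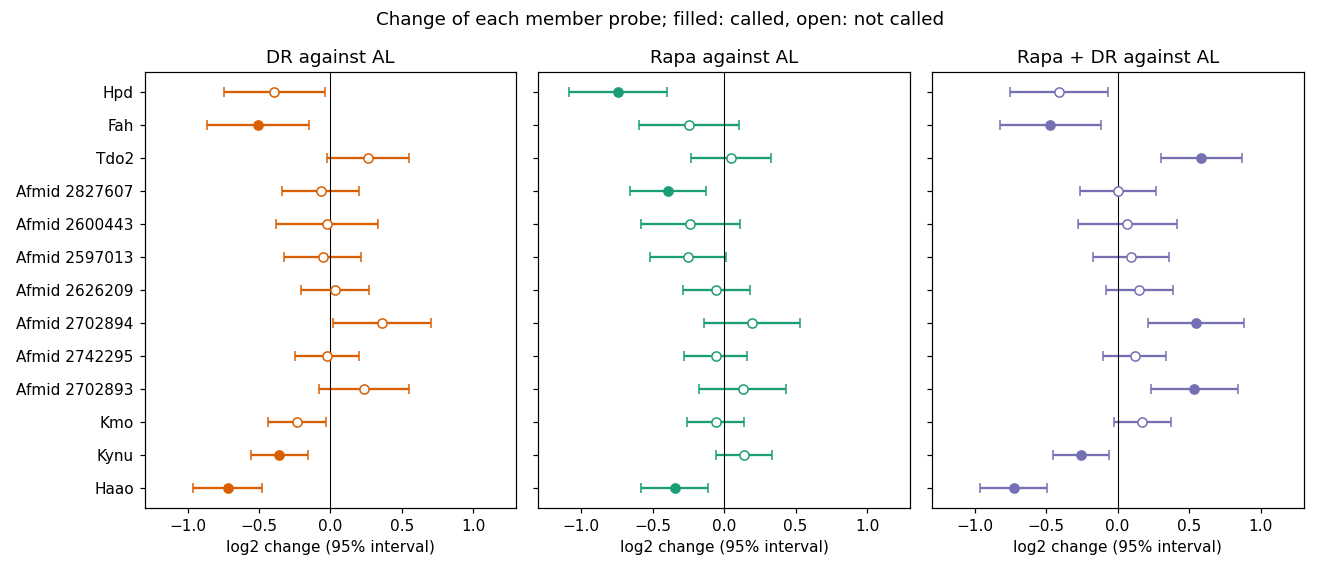
Log2 change of each of the 13 member probes (rows) in DR, Rapa and Rapa + DR mice against AL mice, with 95% intervals; filled points were called and open points were not. Haao lies lowest in DR (−0.72) and Rapa + DR (−0.73), Hpd lowest in Rapa (−0.74), and Tdo2 highest in Rapa + DR (0.59).

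The first enzyme of the tyrosine branch could not be read. The Tat probe was above background on 0 of 46 arrays, with signals of 61.2 to 82.9. Its group means were 6.13 ± 0.05 in AL (SD, n = 11), 6.13 ± 0.10 in DR (n = 11), 6.10 ± 0.08 in Rapa (n = 12) and 6.18 ± 0.11 in Rapa + DR (n = 12). These values are a bound on what the probe registered and give no order of the groups. In a fit of all 25697 probes without the background filter, the change of Tat from AL was 0.00080 ± 0.037 (SE) under DR (adjusted p = 0.994, limma) and 0.05 ± 0.037 under Rapa + DR (adjusted p = 0.293).

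Hpd, the dioxygenase that makes homogentisate, was lower in Rapa mice. Its level ran from 12.08 to 13.40 (median 12.79) in AL and from 11.25 to 12.46 (median 12.08) in Rapa. In DR it ran from 11.58 to 13.32 (median 12.26) and in Rapa + DR from 11.38 to 12.78 (median 12.38). All 12 Rapa mice lay below the AL median and 6 of them lay below the lowest AL mouse, so the groups overlapped in part. Hpd fell by 0.74 ± 0.17 (SE) on the log2 scale in Rapa, or by 40.3% (adjusted p = 0.00161, limma), and by 0.67 and 0.74 with quantile normalization and with centred arrays. This call was kept with each of the 46 mice left out in turn (−0.81 to −0.68). The change was −0.39 ± 0.17 in DR (adjusted p = 0.104) and −0.41 ± 0.17 in Rapa + DR (adjusted p = 0.0504), neither of which was called. With the array background level as a covariate the latter was −0.78 (adjusted p = 0.00136, limma), which was called. With centred arrays Hpd was −0.0066 from AL under DR and 0.10 above AL under Rapa + DR. Against Rapa, the Rapa + DR mice were 0.33 ± 0.17 higher without a call (adjusted p = 0.130), and were called with quantile normalization (0.44) and with centred arrays (0.85).

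The effect of rapamycin on Hpd was compared between freely fed and restricted mice. Restricted mice were given less of the chow that carried rapamycin, and the dose each mouse took in was not analysed here. Rapa + DR differed from DR by −0.02 ± 0.17 (95% interval −0.36 to 0.33). This value was 0.03 with quantile normalization and 0.11 with centred arrays. It ran from −0.46 to 0.11 over 15 alternatives and was called in none, so its size depended on the processing. The change of Rapa over AL was −0.74. The difference between these effects was 0.72 ± 0.24 (adjusted p = 0.0865, limma interaction), which missed the threshold that 2.51% of all tested probes passed (368 probes, or 213 to 729 with each mouse left out in turn). It was past the threshold with quantile normalization (0.70, adjusted p = 0.00675), with centred arrays (0.85, adjusted p = 0.00509) and with the array SD as a covariate (0.84, adjusted p = 0.000399). With array weights it also passed, making 4 of 13 alternatives in all. It did not pass in the others, among them normexp background correction (0.70). The raw signals, before division by the array SD, had medians of 5780 in AL, 6056 under DR, 3398 under Rapa and 6528 under Rapa + DR.

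Fah, the hydrolase of the last step, had the brightest of the member probes, and its calls depended on the scaling. Its level ran from 13.28 to 14.71 (median 14.28) in AL and from 13.17 to 14.39 (median 13.64) in DR. In Rapa it ran from 13.13 to 14.54 (median 14.07) and in Rapa + DR from 12.99 to 14.78 (median 13.73). The ranges overlapped almost fully, and the highest value of all was that of a Rapa + DR mouse. Fah was lower in DR by 0.51 ± 0.18 (adjusted p = 0.0348) and in Rapa + DR by 0.47 ± 0.17 (adjusted p = 0.028) on the deposited scaling, but with centred arrays the changes were −0.0059 (adjusted p = 0.969) and 0.18 (adjusted p = 0.0954), and with quantile normalization −0.12 (adjusted p = 0.105) and 0.02 (adjusted p = 0.815). In Rapa the change was −0.25 ± 0.17 without a call (adjusted p = 0.366), and it was called with quantile normalization (−0.19) and with centred arrays (−0.28). With the array SD as a covariate the change was −0.17 in DR (adjusted p = 0.00422, limma). It was still called only because the rule used the group medians without the covariate, which differed by −0.64. In Rapa + DR the change was −0.02 with the covariate, not called, and −0.35 with normexp background correction (adjusted p = 0.110). The raw signals had medians of 14738 in AL, 17100 under DR, 11704 under Rapa and 16764 under Rapa + DR. The call in DR was also lost with AL mouse 1, 2, 3, 4, 6 or 8 or DR mouse 1 or 8 left out (adjusted p = 0.0510 to 0.0694), and that in Rapa + DR with AL mouse 1, 2 or 4 or Rapa + DR mouse 3, 4 or 7 left out (0.0507 to 0.0611).

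The dependence of the bright members on the array SD was measured within groups. Over the 46 mice, each taken as its deviation from its group mean, the correlation with the array SD was r = −0.97 for Fah, −0.82 for Hpd and −0.62 for Haao. It was 0.61 for Tdo2, 0.55 for Kmo and 0.30 for Kynu. The 7 Afmid probes had r between −0.31 and 0.49. These values are descriptions, since level and array SD come from the same array.

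**Figure D2:**
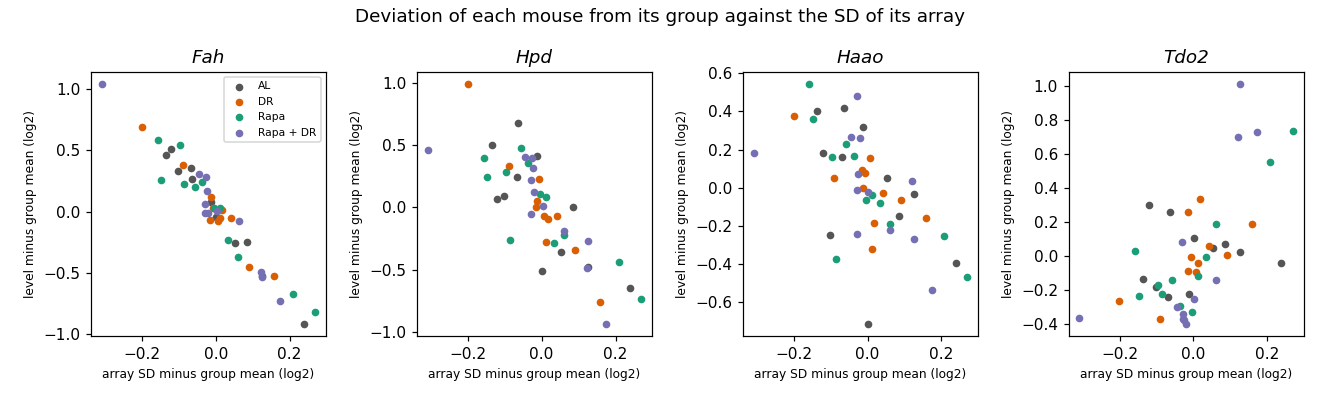
Each point is 1 of the 46 mice: the horizontal axis is its array SD minus the group mean and the vertical axis its level minus the group mean (both log2), for Fah, Hpd, Haao and Tdo2. Fah falls on nearly 1 line (r = −0.97), Hpd (−0.82) and Haao (−0.62) follow it more loosely, and Tdo2 runs the other way (0.61).

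**Figure D3:**
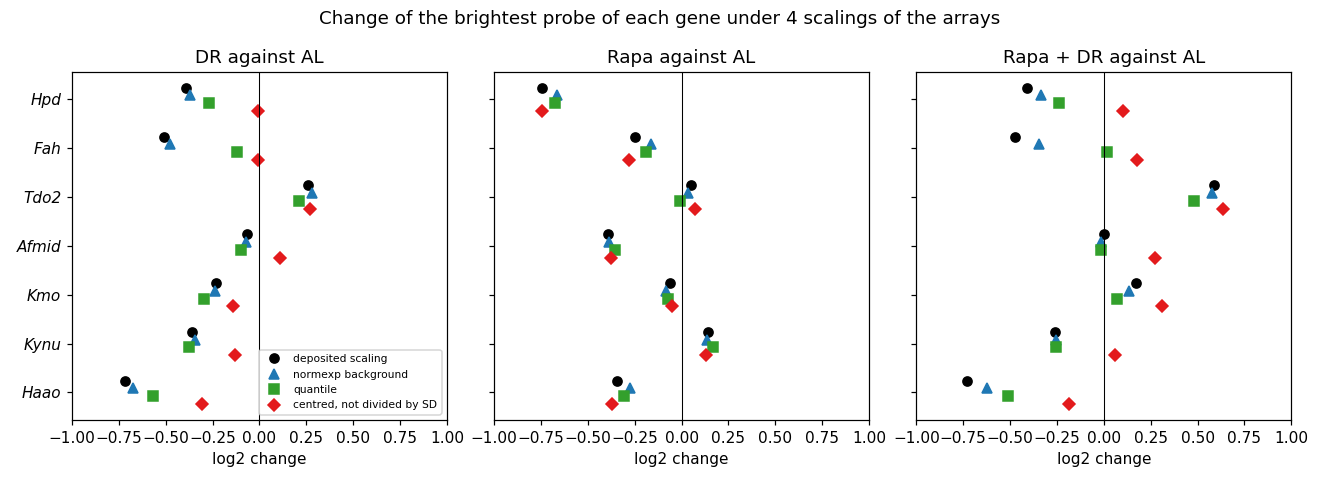
Log2 change of the brightest probe of 7 member genes in DR, Rapa and Rapa + DR against AL under 4 scalings of the arrays (black circles: deposited scaling; triangles: normexp background; squares: quantile; diamonds: centred arrays). In Rapa the 4 values of Hpd stay between −0.74 and −0.66, while in DR and Rapa + DR the centred values of Hpd, Fah, Kynu and Haao lie to the right of the others.

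Tdo2, the first and rate-limiting enzyme of tryptophan breakdown, was higher in Rapa + DR mice. Its probe was dim and was above background on 44 of 46 arrays. The level ran from 6.70 to 7.24 (median 6.96) in AL and from 6.83 to 7.53 (median 7.19) in DR. It ran from 6.66 to 7.72 (median 6.86) in Rapa and from 7.12 to 8.53 (median 7.25) in Rapa + DR. All 12 Rapa + DR mice lay above the AL median and 6 lay above the highest AL mouse. In that group 3 mice, numbers 3, 4 and 7, stood far above the rest at 8.22, 8.53 and 8.25, and the other 9 lay between 7.12 and 7.61. The arrays of these 3 mice had the highest array SDs of the group (1.53, 1.54 and 1.58), and the part of the array SD in their values was not tested for single mice.

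The mean of Tdo2 in Rapa + DR was 0.59 ± 0.14 (SE) above AL, or 50.1% higher (adjusted p = 0.00076, limma), and 0.54 ± 0.14 above Rapa (adjusted p = 0.00251). The medians of Rapa + DR and AL were only 0.29 apart. The call against AL was lost where medians had to differ by over 30%. Against AL the change was 0.48 with quantile normalization, 0.64 with centred arrays and 0.36 (adjusted p = 0.0156) with the array SD as a covariate, each still called. Against Rapa the covariate reduced it to 0.30 (adjusted p = 0.0625), which was not called. The change from AL was 0.26 ± 0.14 in DR (adjusted p = 0.199) and 0.05 ± 0.14 in Rapa (adjusted p = 0.864). Rapa + DR differed from DR by 0.32 ± 0.14 (adjusted p = 0.202).

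The promoter window of Tdo2, the first enzyme of its branch, and those of Hpd and Haao, the members with the largest falls, are shown to place the changes beside the sequence at the annotated start. Each is the RefSeq window (GRCm38.p6) of 250 bases before and 50 after the start, written 5′ to 3′ on the gene's strand, and capitals mark matches to any of 10 short motifs searched on both strands. Tdo2 lies at chr3:81975679-81975978, Hpd at chr5:123182674-123182973 and Haao at chr17:83846741-83847040, all on the minus strand.
Tdo2: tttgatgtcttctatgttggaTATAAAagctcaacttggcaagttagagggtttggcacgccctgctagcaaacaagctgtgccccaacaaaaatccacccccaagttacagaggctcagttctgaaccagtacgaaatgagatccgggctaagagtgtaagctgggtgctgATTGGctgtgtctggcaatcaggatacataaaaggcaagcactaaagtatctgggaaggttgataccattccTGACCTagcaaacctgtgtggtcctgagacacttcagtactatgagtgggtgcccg
Hpd: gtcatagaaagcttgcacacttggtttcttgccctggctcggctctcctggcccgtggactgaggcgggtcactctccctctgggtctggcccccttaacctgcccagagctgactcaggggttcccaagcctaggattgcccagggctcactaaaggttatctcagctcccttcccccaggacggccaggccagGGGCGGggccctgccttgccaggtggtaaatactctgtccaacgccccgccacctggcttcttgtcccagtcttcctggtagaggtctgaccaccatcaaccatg
Haao: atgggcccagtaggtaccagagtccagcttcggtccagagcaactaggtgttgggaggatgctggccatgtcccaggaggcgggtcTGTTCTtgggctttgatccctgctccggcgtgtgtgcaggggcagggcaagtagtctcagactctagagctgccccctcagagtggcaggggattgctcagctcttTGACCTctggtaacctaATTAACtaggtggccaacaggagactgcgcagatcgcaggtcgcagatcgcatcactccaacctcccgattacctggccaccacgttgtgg

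The motifs were the TATA box TATAAA, the CCAAT box, the GC box GGGCGG, the short nuclear receptor motif AGGTCA (a part of a full site), the short glucocorticoid receptor motif TGTTCT, the FOXO element GTAAACA, the E box CACGTG, the D box element TTATGTAA, the cAMP response element TGACGTCA and the HNF1 motif GTTAAT. None of these motifs overlapped another in the windows shown. The Tdo2 window held TATAAA 229 bases upstream of the start, CCAAT on the other strand 78 bases upstream and AGGTCA on the other strand 6 bases upstream. The Hpd window held 1 match, GGGCGG 55 bases upstream. The Haao window held TGTTCT 164 bases upstream, AGGTCA on the other strand 58 bases upstream and GTTAAT on the other strand 41 bases upstream. Of 32851 promoter windows of this length, 13.6% held TATAAA, 37.4% CCAAT, 35.7% GGGCGG, 16.3% AGGTCA, 19.0% TGTTCT and 7.1% GTTAAT on either strand. TTATGTAA, TGACGTCA, CACGTG and GTAAACA, held by 0.9%, 1.8%, 7.2% and 3.6% of windows, had no match in the windows of the 8 members matched by symbol. These 8 included Hgd, and Kynu was not searched because no window was listed for it. A match is a description of the letters only.

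Afmid, the formamidase that releases kynurenine, was read by 7 probes that named the same transcript and did not move together. Probes ILMN_2597013, ILMN_2626209 and ILMN_2742295 correlated at r = 0.91 to 0.94 within groups, and ILMN_2702893 and ILMN_2702894 at 0.94 with each other. The brightest, ILMN_2827607, correlated with the latter pair at only 0.31 and 0.37. ILMN_2600443 had r of −0.01 and 0.02 with that pair. What each probe reads within the transcript was not analysed here.

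The pair ILMN_2702893 and ILMN_2702894 was higher in Rapa + DR than in AL. For ILMN_2702893 the level ran from 7.19 to 8.38 (median 7.70) in AL and from 7.70 to 8.66 (median 8.34) in Rapa + DR. For ILMN_2702894 it ran from 7.63 to 8.89 (median 7.90) in AL and from 7.95 to 9.06 (median 8.68) in Rapa + DR. Nearly all Rapa + DR mice lay above the AL median (11 of 12 and 12 of 12), but the ranges overlapped. The changes were 0.54 ± 0.15 (adjusted p = 0.00427) and 0.55 ± 0.17 (adjusted p = 0.00738), with the second lost under quantile normalization (0.43, adjusted p = 0.0502) and without the 8 arrays of lowest background, which are 2 Rapa and 6 Rapa + DR arrays (0.45, adjusted p = 0.0935). The other 5 probes lay between 0.0018 and 0.15 above AL in Rapa + DR on the same scaling, and none was called.

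The brightest Afmid probe differed in the other direction and in another group. ILMN_2827607 ran from 9.49 to 10.23 (median 9.88) in AL and from 8.54 to 9.83 (median 9.60) in Rapa. All 12 Rapa mice lay below the AL median, with mice 2 and 3 far below the rest at 8.54 and 8.66. The change was −0.39 ± 0.13 (adjusted p = 0.0301), and it was −0.37 with centred arrays, which was not called (adjusted p = 0.169). The call was also lost with AL mouse 5, 6 or 9 or Rapa mouse 2 or 3 left out (−0.37 to −0.31). No other Afmid probe was called in Rapa against AL. ILMN_2600443 and ILMN_2597013 changed by −0.24 and −0.25, and ILMN_2626209 and ILMN_2742295 by −0.05 and −0.06. ILMN_2702894 and ILMN_2702893 lay 0.19 and 0.13 above AL. Against Rapa, the Rapa + DR mice were higher for ILMN_2827607 (0.39 ± 0.13, adjusted p = 0.0177), ILMN_2597013 (0.35 ± 0.13, adjusted p = 0.0363) and ILMN_2702893 (0.41 ± 0.15, adjusted p = 0.0351), and all 3 calls were lost under quantile normalization (0.27 to 0.34) and without the 8 arrays of lowest background (0.30 to 0.36). The calls of ILMN_2597013 and ILMN_2702893 were lost with 12 and 9 of the 46 mice, each left out in turn (adjusted p = 0.0401 to 0.0887).

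**Figure D4:**
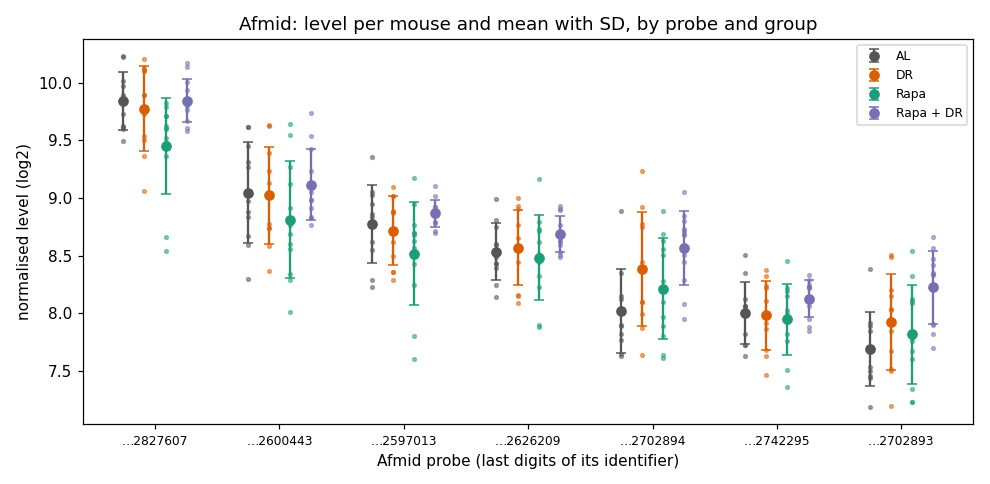
Level (log2) of the 7 Afmid probes per mouse (small points) and as group mean with SD (large points and whiskers) for AL, DR, Rapa and Rapa + DR. The Rapa + DR mean stands 0.54 and 0.55 above AL for ILMN_2702893 and ILMN_2702894 and 0.0018 to 0.15 above it for the other 5 probes.

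Kmo, the kynurenine hydroxylase, differed between restricted mice with and without rapamycin. Its level ran from 7.58 to 8.58 (median 8.13) in DR and from 8.23 to 8.92 (median 8.59) in Rapa + DR. In AL it ran from 7.86 to 8.60 (median 8.42) and in Rapa from 7.88 to 8.88 (median 8.27). All 12 Rapa + DR mice lay above the DR median and 7 lay above the highest DR mouse. Kmo was higher by 0.41 ± 0.10 (SE), or 32.4%, in Rapa + DR than in DR (adjusted p = 0.0149, limma), where 1.86% of all probes were called higher and 0.348% lower. The change was 0.36 with quantile normalization and 0.45 with centred arrays, both called, and 0.35 to 0.45 with each mouse left out in turn. Neither group was called against AL. The change was −0.23 ± 0.10 in DR (adjusted p = 0.0967) and 0.17 ± 0.10 in Rapa + DR (adjusted p = 0.163), the former being called with quantile normalization (−0.30, adjusted p = 0.00987). The estimated effects of rapamycin in restricted and in freely fed mice were 0.46 ± 0.14 apart (adjusted p = 0.0609, limma interaction), which missed the threshold. This interaction passed with quantile normalization (0.44, adjusted p = 0.0265) and in 6 of 13 alternatives in all. It did not pass with centred arrays (0.50) or normexp background correction (0.45).

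Kynu, the hydrolase that cleaves hydroxykynurenine, was lower in both restricted groups on the deposited scaling. The level ran from 9.92 to 10.75 (median 10.43) in AL and from 9.58 to 10.28 (median 10.08) in DR. It ran from 10.05 to 10.83 (median 10.50) in Rapa and from 9.49 to 10.35 (median 10.14) in Rapa + DR. Every DR and every Rapa + DR mouse lay below the median of AL and below that of Rapa, though the ranges overlapped. Kynu was lower than in AL by 0.36 ± 0.10 in DR (adjusted p = 0.00705) and by 0.26 ± 0.10 in Rapa + DR (adjusted p = 0.0315). With centred arrays these changes were −0.13 (adjusted p = 0.612) and 0.06 (adjusted p = 0.802). The latter call was also lost without the 8 arrays of lowest background (−0.15, adjusted p = 0.342) and with AL mouse 1, 2, 7 or 8 or Rapa + DR mouse 5 or 8 left out (−0.24 to −0.20).

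The difference in Kynu was widest between DR and Rapa. DR mice lay 0.50 ± 0.10 below Rapa mice (adjusted p = 0.0002, limma), and 5 of the 11 DR mice lay below the lowest Rapa mouse. Rapa + DR mice lay 0.40 ± 0.10 below Rapa mice (adjusted p = 0.00139). With centred arrays the differences were −0.26 (adjusted p = 0.289) and −0.07 (adjusted p = 0.748). Without the 8 arrays of lowest background the latter was −0.30 (adjusted p = 0.0719), not called.

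Haao, the dioxygenase that makes the quinolinate precursor, showed the largest fall of any member in DR and in Rapa + DR. Its level ran from 12.44 to 13.57 (median 13.21) in AL and from 12.12 to 12.81 (median 12.44) in DR. It ran from 12.34 to 13.35 (median 12.76) in Rapa and from 11.89 to 12.91 (median 12.44) in Rapa + DR. Every DR and every Rapa + DR mouse lay below the AL median, and 6 of each group lay below the lowest AL mouse. In DR, Haao changed by −0.72 ± 0.12 (SE) on the log2 scale, or −39.2% (adjusted p = 1.47e-05, limma). In Rapa + DR it changed by −0.73 ± 0.12, or −39.6% (adjusted p = 2.95e-06). Both calls were kept with each mouse left out, with quantile normalization (−0.57 and −0.51) and with the array SD as a covariate (−0.57 and −0.53), and were lost with centred arrays (−0.31, adjusted p = 0.181, and −0.19, adjusted p = 0.345). The raw signals had medians of 7549 in AL, 6832 under DR, 5588 under Rapa and 6868 under Rapa + DR.

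In Rapa, Haao was lower than in AL by 0.35 ± 0.12 (adjusted p = 0.0332), with 11 of 12 mice below the AL median. This call was lost with centred arrays (−0.37, adjusted p = 0.125), with normexp background correction (−0.27) and with AL mouse 1, 2, 4, 6 or 8 or Rapa mouse 3, 9, 11 or 12 left out (−0.33 to −0.30). Rapa + DR and DR mice lay 0.38 ± 0.11 and 0.37 ± 0.12 below Rapa mice (adjusted p = 0.0101 and 0.0238), but with centred arrays they lay 0.18 and 0.07 above. The first was not called with quantile normalization either (−0.21, adjusted p = 0.0628), and neither was called without the 8 arrays of lowest background (−0.35 and −0.30). Without Rapa mouse 8 the second difference was −0.32 (adjusted p = 0.054). Rapa + DR differed from DR by −0.01 ± 0.12 (95% interval −0.25 to 0.23).

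**Figure D5:**
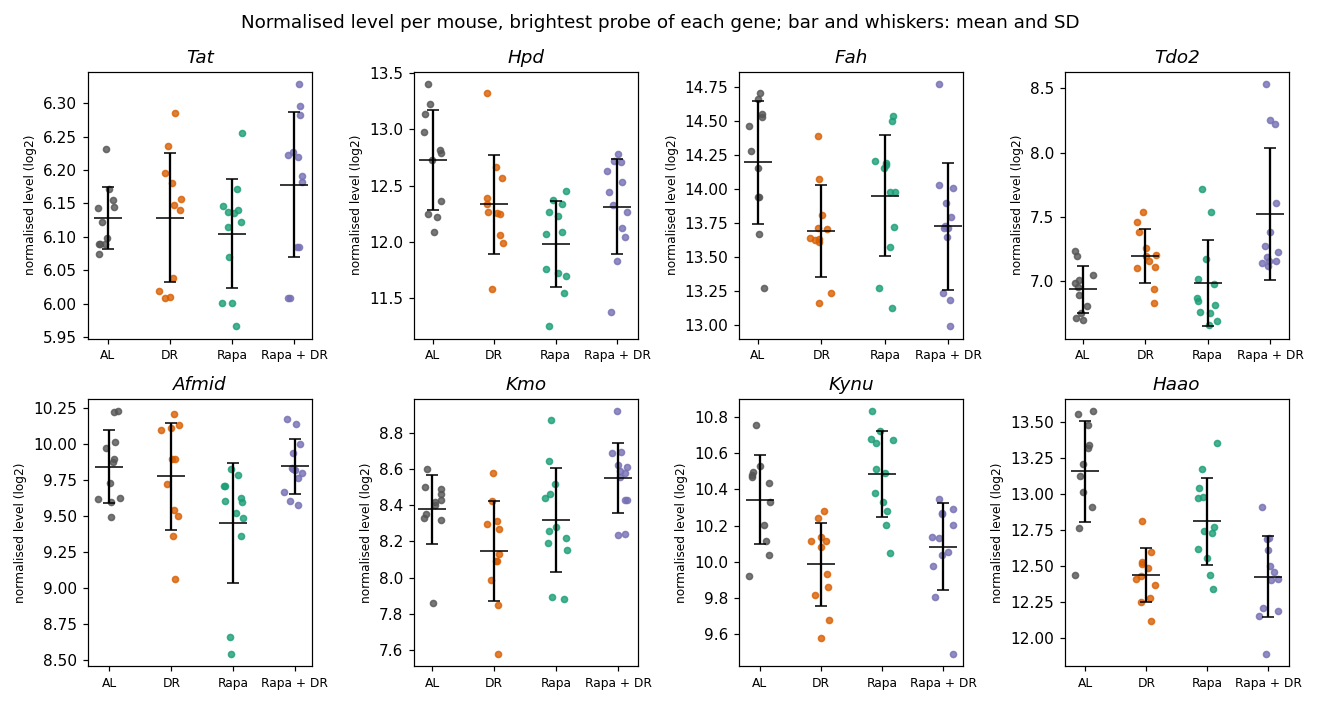
Level (log2) of the brightest probe of the 8 member genes in each of the 46 mice by group, with the group mean and SD as bar and whiskers. Haao and Kynu sit lower in the DR and Rapa + DR columns, Hpd is lowest in Rapa, 3 Rapa + DR mice stand out in Tdo2 at 8.22 to 8.53, and Tat varies only around background (6.10 to 6.18 for the means).

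Members were also compared across the mice within groups. Of 28 pairs of genes, 11 correlated past an adjusted p of 0.05 (permutation within groups, two-sided, 100000 resamples, Benjamini-Hochberg over the 28 pairs), 5 positively and 6 negatively. Hpd and Haao had r = 0.80 and rho = 0.83 (both adjusted p = 7e-05, from the smallest p the resamples allow, 1e-05), and r = 0.78 without the 2 mice farthest from the median of Hpd. Hpd and Fah had r = 0.85 and rho = 0.87 (adjusted p = 7e-05), and 0.83 without 2 mice. Kmo and Kynu had r = 0.51 and rho = 0.49 (adjusted p = 0.00152 and 0.00504), and 0.51 without 2 mice. These 3 pairs were the ones that also passed with the same sign after the array SD was removed from each gene (r = 0.65, 0.43 and 0.43). They passed with centred arrays too (r = 0.68, 0.61 and 0.81), but 26 of the 28 pairs did, so that setting sets few pairs apart. The r of Hpd with Haao was 0.80 in AL, 0.79 under DR, 0.89 under Rapa and 0.81 under Rapa + DR.

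All 6 negative pairs were positive with centred arrays. Fah and Tdo2 had r = −0.62 (rho −0.58, adjusted p = 7e-05), but 0.34 with centred arrays. Kmo and Haao had r = −0.50 (adjusted p = 0.00152), but 0.57 with centred arrays. Fah and Kmo went from −0.46 to 0.78 in the same way.

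The genes whose values within groups followed Tdo2 most closely, among 6225 named probes above background on every array, were Slain2 (r = 0.82), Lypla1 (0.81), Zc3h15 (0.81), Uchl5 (0.81) and Marchf5 (0.80) over 46 mice. The same genes correlated with the array SD at 0.81, 0.59, 0.80, 0.77 and 0.89, beside 0.61 for Tdo2. For Tat, whose probe was at background, the closest was Parp16 (r = 0.47).

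The other genes of these pathways were read in lists, which were also chosen with earlier results of these data known. Beside them stand the shares of all tested probes called. These were 10.9% higher and 6.45% lower in DR, 8.64% and 5.83% in Rapa, and 17.6% and 9.87% in Rapa + DR. Around the tyrosine branch, 8 further enzymes and partners were tested, of which 1 was higher and 2 lower in DR and 1 higher and 3 lower in Rapa + DR; none was called in Rapa. Ddc, the decarboxylase of aromatic amino acids, fell by 1.62 ± 0.16 in DR (adjusted p = 5.51e-10, limma) and was at −1.64 in Rapa + DR (adjusted p = 6.81e-11), with 0.26 in Rapa and no call. Got1, the cytosolic aspartate aminotransferase, rose by 0.77 ± 0.14 in DR (adjusted p = 7.93e-05) and by 1.44 in Rapa + DR. Got2, its mitochondrial counterpart, was lower by 0.62 and 0.81, which centred arrays reduced to 0.12 and 0.16 below AL, not called. Of the 8 genes of phenylalanine hydroxylation and its tetrahydrobiopterin cofactor, 2 were higher in DR and 3 in Rapa + DR with none lower, and in Rapa 1 was higher and 1 lower. Gch1, the first enzyme of tetrahydrobiopterin synthesis, rose by 0.82 ± 0.16 in DR (adjusted p = 0.000128) and by 0.77 in Rapa + DR.

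Of 9 further tryptophan and kynurenine genes, 2 were higher under DR, 3 under Rapa and 2 under Rapa + DR, where 2 were lower (all probes, 10.9%, 8.64% and 17.6% higher and 9.87% lower). Kyat3, a kynurenine aminotransferase that leads off the main route, rose by 0.81 under DR, 0.68 under Rapa and 0.85 under Rapa + DR. Maob, a monoamine oxidase, rose by 0.48, 0.38 and 0.63, its call in Rapa being lost with centred arrays (adjusted p = 0.198). Qprt, which takes quinolinate towards NAD, was not called in any of the 3 (−0.25, −0.05 and −0.09). Among 9 tested genes of NAD synthesis and salvage, 2 were higher in DR, none was called in Rapa, and 3 were higher and 1 lower in Rapa + DR. Nampt, the rate-limiting salvage enzyme, rose by 0.61 in DR and 1.10 in Rapa + DR, and Nmrk1, a nicotinamide riboside kinase, by 0.85 and 1.09; neither was called in Rapa (0.14 and 0.13). Of 7 genes of the glutarate branch, 2 were higher under DR, 2 under Rapa and 4 under Rapa + DR. Among them Etfa and Etfdh, which pass electrons from acyl-CoA dehydrogenases to the respiratory chain, rose in all 3 groups (Etfa by 0.52, 0.79 and 0.56; Etfdh by 0.59, 0.53 and 0.47).

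Of 15 genes listed for histidine, serine, threonine, glycine and proline breakdown, 3 were lower under DR, 4 under Rapa and 3 under Rapa + DR. Aass, an enzyme of lysine breakdown also held in this list, was the 1 called higher, in Rapa + DR (0.74). Among all probes, 6.45%, 5.83% and 9.87% were lower in these groups, and 17.6% were higher in Rapa + DR. Gldc, of the glycine cleavage system, fell by 1.06 in DR and 1.13 in Rapa + DR. Of 17 glucocorticoid-induced genes tested other than Tat and Tdo2, 8 were higher and 1 lower in DR, 2 higher in Rapa and 9 higher in Rapa + DR, beside 10.9%, 8.64% and 17.6% of all probes called higher, the count in Rapa being near that share, with Lpin1 at 2.47 and Per1 at 1.66 in DR. Over all of these lists, 23 genes were called under DR, 13 under Rapa and 32 under Rapa + DR, every one with the same sign under the 4 scalings, and 19, 9 and 25 of them were called under all 4.

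Markers of liver cell types were read beside these results. Of 8 hepatocyte markers 6 were above background on every array, and Fgb on none. Their summed normalised signal, on the deposited scaling made linear, ran from 84576 to 374540 in AL and 87986 to 318000 in DR. It ran from 82295 to 358630 in Rapa and 80667 to 445460 in Rapa + DR. In this order of groups the medians were 213890, 144410, 189410 and 146250. This scaling lowers bright probes on arrays of larger array SD, and no marker sum was taken with centred arrays. Of 13 tested Kupffer cell and macrophage markers, 3 were lower and 1 higher in DR, and 6 lower in Rapa. In Rapa + DR 6 were lower and 1 higher, and Cd5l was never above background. With centred arrays the counts called lower were 1, 4 and 4. Among all probes 6.45% were called lower and 10.9% higher in DR, 5.83% and 8.64% in Rapa, and 9.87% and 17.6% in Rapa + DR. These shares also stand beside the other marker counts against AL. The summed normalised signal of the Kupffer cell and macrophage markers ran from 5518 to 8195 in AL, 5241 to 7766 in DR, 5113 to 6861 in Rapa and 5210 to 6794 in Rapa + DR. Of 7 tested hepatocyte markers, 1 was higher in DR, none was called in Rapa, and 1 was higher and 2 were lower in Rapa + DR (4 higher and 0 lower with centred arrays). Of 9 endothelial markers, none was called in DR, 3 were lower in Rapa (1 with centred arrays), and 1 was higher and 1 lower in Rapa + DR. Of 2 tested erythroid markers, 1 was lower in DR and in Rapa + DR. None of 9 stellate cell markers was called against AL. Of 10 T and B cell markers, 3 (Cd4, Cd8a and Igj) were never above background and none of the 7 tested was called. Of 4 bile duct markers, 2 (Krt19 and Cftr) were never above background, and of the 2 tested none was called against AL. Against Rapa, 1 was lower in DR and in Rapa + DR, where 4.38% and 5.93% of all probes were called lower. The part of cell composition in the changes of the members was not tested.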

How the data were processed

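Liver RNA of 46 mice was hybridised to Illumina Mouse Ref8 v2.0 chips, each mouse once. The table holds z scores as deposited, for which the authors extracted signals with Genome Studio 1.6, took log2 and subtracted each array's mean and divided by its SD. Since the signals lie on a grid of 0.1, each array's mean and SD could be recovered from the scores, and all arrays were put on 1 scale. A probe was above background when its signal passed the limit set on each array from its dim probes. Probes that passed this limit on any array (14647) were fitted together over the 4 groups in limma 3.58.1 (R 4.3.3). A call needed an adjusted p under 0.05 and medians over 15% apart, except the interaction, which needed the p alone. Where a covariate, a block or array weights were fitted, the medians were still taken from the values without them. Correlations used SciPy 1.17.1. A further table with 92 columns whose names matched no sample was not used.

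The members and the gene lists were chosen with earlier results of these data known. All member probes are described. Of the lists, at most 4 called genes with the greatest change were named per comparison (the 2 of lowest p where none was called), and for Tat and Tdo2 the 5 genes most correlated with them within groups. The fitting step was tested on simulated data with 200 changed genes. Nothing in the labels gives the cages or litters of the mice, and p-values measure the spread between mice. The alternatives were quantile normalization, centred arrays, normexp with an offset of 50, other filters and thresholds, array weights, the methods' ANOVA contrasts, the groups compared alone, a replicate block, array covariates and leaving out each mouse. The background covariate, the removal of the 8 arrays of lowest background and the correlation alternatives were chosen after seeing the data.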

Additional observations from a re-analysis of the deposited data

How the results depend on the processing

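The number of member probes called changed as follows. In DR against AL it was 3, and 0 with centred arrays, 5 with array weights, 5 with the array SD as a covariate and 1 at an adjusted p under 0.001. In Rapa against AL it was 3, and 1 with only the groups compared and 0 at 0.001. In Rapa + DR against AL it was 6, and 2 at 0.001, and in Rapa + DR against DR it was 1, and 0 at 0.001. In Rapa + DR against Rapa it was 6, and 10 with centred arrays, 2 with medians over 30% apart, 0 at 0.001 and 1 without the 8 arrays of lowest background. In DR against Rapa it was 2, and 1 under each of medians over 30% apart, 0.001, the array SD covariate, the background covariate and without those 8 arrays. Centred arrays also moved the directions of the calls. Rapa + DR against Rapa went from 4 higher and 2 lower to 10 higher and 0 lower. Rapa + DR against AL went from 3 higher and 3 lower to 4 higher and 0 lower. DR against Rapa went from 0 higher and 2 lower to 3 higher and 0 lower. The interaction had 0, and 3 with quantile normalization, 3 with the array SD covariate, 2 with array weights, and 1 under each of centred arrays, the stricter filter, the Storey q value and the background covariate. With each mouse left out, the counts ran from 2 to 4 in DR, 1 to 3 in Rapa, 4 to 7 in Rapa + DR, 1 to 1 in Rapa + DR against DR, 4 to 7 in Rapa + DR against Rapa, 1 to 3 in DR against Rapa and 0 to 1 for the interaction. Directions turned for Fah in Rapa + DR against AL (0.017 with quantile normalization, 0.18 with centred arrays), Fah in Rapa + DR against Rapa (0.21 and 0.46, and 0.26 with the array SD covariate) and, with centred arrays, Fah in DR against Rapa (0.27; also 0.072 with quantile normalization, 0.10 with the array SD covariate and 0.032 with the background covariate), Hpd in Rapa + DR against AL (0.10, not called), Kynu in Rapa + DR against AL (0.058) and Haao in Rapa + DR (0.18) and DR (0.067) against Rapa. Other changes of sign were in changes that were not called. The pairs of genes past the threshold were 11 of 28, and 26 with centred arrays and 5 with the array SD removed. Over all probes, Rapa against AL had 2120 calls and 1324 with centred arrays, Rapa + DR against DR 323 and 526 with array weights and 489 with the background covariate, and the interaction 368, with 693 under quantile normalization, 52 with centred arrays, 1630 with array weights, 623 with the Storey q value, 895 with the array SD covariate and 157 without the 8 arrays. With each mouse left out, the interaction had 213 (without AL replicate 6) to 729 (without AL replicate 3), moving by over 1.5 times also without AL replicate 5, AL replicate 7 or Rapa + DR replicate 8, and Rapa + DR against DR 187 (without DR replicate 11) to 408. With medians over 30% apart these counts fell to 1437 in DR, 1019 in Rapa, 2258 in Rapa + DR, 117, 1272 and 858 in the other 3 comparisons, and at 0.001 to 962, 570, 2391, 14, 1210, 692 and 2 for the interaction. The cause of these differences was not tested.

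Mice with the same number share only that number. Over 67 same-numbered pairs the correlation of deviations had a median of 0.042 (−0.60 to 0.66), against 0.0074 for other pairs, 25 pairs were over 0.1, and 4 of 46 mice correlated best with their own number. With the replicate block the member calls were 2 in DR, 3 in Rapa, 5 in Rapa + DR, 1 in Rapa + DR against DR, 6 in Rapa + DR against Rapa, 2 in DR against Rapa and 0 for the interaction, and over all probes Rapa + DR against DR had 215. Signal limited Tat, never above background, and Tdo2, which lay close to it.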
